A study of Homo sapiens with 4 samples.

Results

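The genes described here are 37 genes of homologous recombination, of the Fanconi anaemia pathway and of the damage signalling that calls on both, chosen by symbol from 23228 gene rows. All 37 had a row in every library and passed the filter on low counts. Their RNA was read by sequencing in Daoy, an established human medulloblastoma cell line. A lentiviral PELP1 shRNA was stably expressed in 1 group (n = 2 libraries), and a lentiviral control shRNA in the other (n = 2 libraries), both in medium with 10% serum. The PELP1 protein is a scaffold known for work with nuclear receptors, and the title of the series asks about NF-κB signalling and tumour progression. Neither the number of shRNA sequences nor whether the duplicates came from separate cultures is given in the sources used here, so a p-value here covers the spread among 4 libraries and no more, and that spread may be technical. In bulk RNA, fewer cells that express a gene and less RNA per cell cannot be told apart.

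Homologous recombination repairs a double-strand break by copying the sister chromatid, and is used mainly in the S and G2 phases of the cell cycle. The MRN complex and its helpers trim the broken ends, BRCA2 with PALB2 and BRCA1 prepares the trimmed DNA for strand exchange, and proteins such as RAD51C, XRCC3 and RAD54L help the strand invade the sister. The Fanconi pathway deals with crosslinks between DNA strands: a core complex ubiquitinates the FANCD2 and FANCI pair, which brings in nucleases and recombination proteins. The kinases ATM and ATR, with CHEK2 and CHEK1 downstream, hold the cell cycle while repair proceeds. In people, inherited mutations in several of these genes, such as BRCA2 and PALB2, are known to predispose to medulloblastoma.

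The libraries held from 24052542 to 29221640 counts in genes. PELP1 stood at 55.6 and 49.7 CPM (counts relative to library size, scaled by the TMM method) in the PELP1 shRNA libraries, against 168 and 185 CPM in the control shRNA libraries, or −1.75 ± 0.05 as a log2 fold change (SE, edgeR's quasi-likelihood test, FDR = 1.54e-33). Of 12 markers of the cerebellar granule lineage, 9 passed the filter, while ATOH1, BARHL1 and NEUROD1 had at most 6 counts in any library. Of these 9, 4 were called higher, among them ZIC2 and PAX6, 3 were called lower and 2, among them ZIC1, did not pass. That is 77.8% called, against 58.1% of all genes tested. Of 8 blood cell markers 3 were tested. PTPRC had 5 to 9 counts in each library, while CD68, a lysosomal protein gene used as a macrophage marker, had 57.5 and 58.2 CPM with the PELP1 shRNA, against 58.6 and 57.7 CPM with the control shRNA. The 8 fibroblast markers went both ways, with 3 higher and 5 lower, and their summed level was 3734 to 4020 CPM with the PELP1 shRNA, against 4671 to 4974 CPM with the control shRNA. Most of that sum was COL1A1, which rose to 3860 and 3590 CPM with the PELP1 shRNA, against 3162 and 3405 CPM with the control shRNA, whereas COL1A2 fell to 139 and 125 CPM, against 1467 and 1523 CPM. Of 6 endothelial markers 5 were tested, with sums of 9.03 to 9.08 CPM with the PELP1 shRNA and 26.7 to 27.5 CPM with the control shRNA. TEK made up most of the difference, with 3.12 and 3.45 CPM with the PELP1 shRNA, against 23.5 and 23.7 CPM with the control shRNA, while PECAM1 and VWF, each under 2 CPM, were called higher. These marker genes were named after their values were seen. The part of these shifts in the results below was not tested.

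Single repair genes moved in both directions, and their total level was similar in both groups. The 37 members summed to 2342 and 2359 CPM in the PELP1 shRNA libraries, against 2341 and 2311 CPM in the control shRNA libraries. In the edgeR test with a false discovery rate (FDR) of 0.05 over all genes, 10 members rose, 14 fell and 13 did not pass. That is 64.9% of the members, against 58.1% of all 14972 genes tested and 64.3% of the 8717 tested genes within the members' range of mean level (12.9 to 260.3 CPM). The share called was thus close to the background. By direction, the background over all tested genes was 28.6% higher and 29.5% lower, and within the members' range of level 29.8% higher and 34.5% lower. The median log2 fold change of the members was −0.07, against 0.0022 over all genes tested. Their median absolute change of 0.17 compares with 0.20 in genes of the same range of level. The balance of calls moved with the scaling. With upper-quartile factors 11 members rose and 8 fell, and with library size alone 11 rose and 7 fell. The balance over all 14972 genes tested moved the same way. It was 4276 higher and 4424 lower with TMM, 5071 and 3694 with upper-quartile factors, and 5681 and 3305 with library size alone. The median of all genes stood at 0.09 with library size alone. DESeq2 called 9 members higher and 9 lower, and 3092 higher and 3476 lower of all genes tested (43.9% called). Without PELP1 shRNA replicate 1, the members' median log2 fold change was −0.04 in edgeR.

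**Figure D1:**
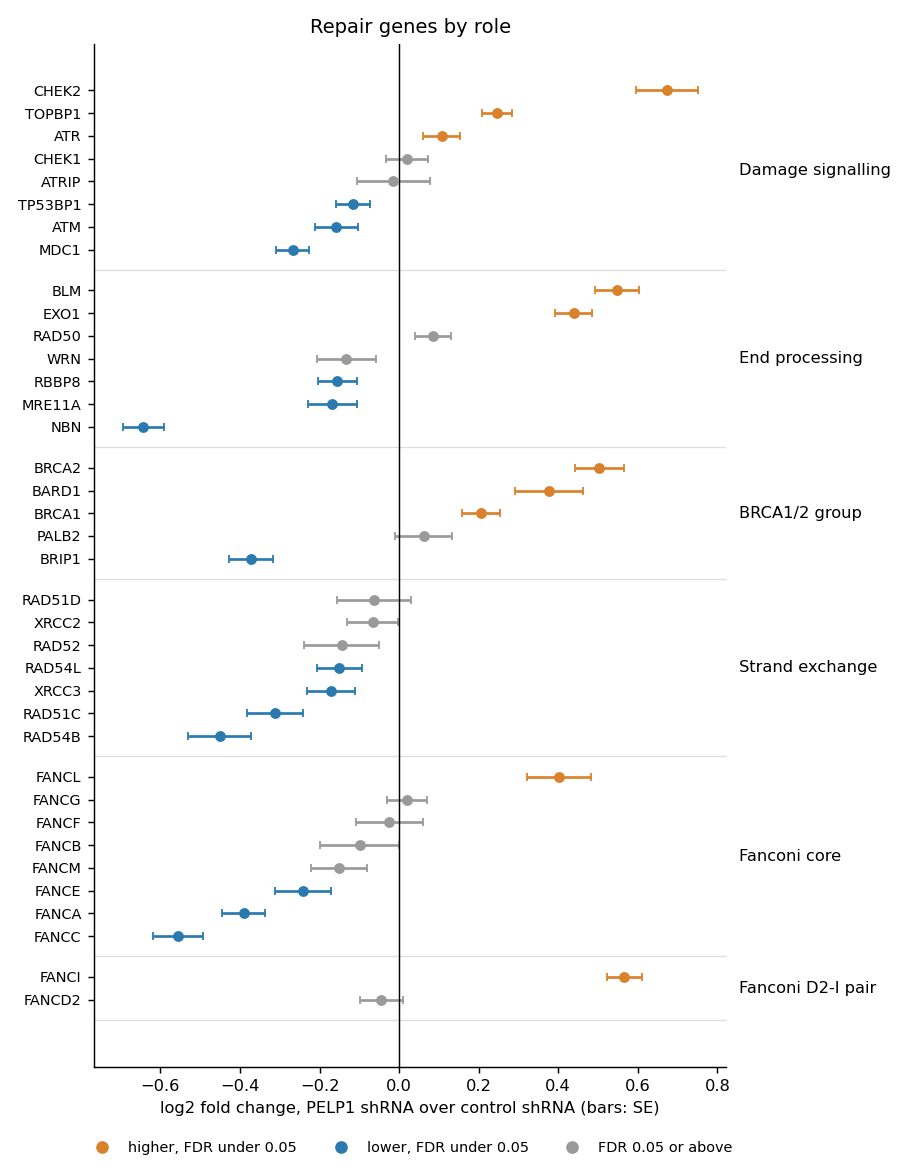
Log2 fold change of each of the 37 repair genes, PELP1 shRNA over control shRNA, with bars for the standard error, arranged by role. Orange points are the 10 genes called higher, blue points the 14 called lower and grey points the 13 that did not pass an FDR of 0.05; CHEK2 and NBN lie at the ends, at 0.67 and −0.64.

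Changes were modest in size. No member passed a test against a 1.5-fold change (edgeR glmTreat, 0 of 37, with 2 at an unadjusted p under 0.05), whereas 9.63% of all genes did, and 570 of the 8717 in the members' range of level. DESeq2 and limma-voom likewise called 0, with 0 at an unadjusted p under 0.05 in both. With library size alone, 1 member passed, which was CHEK2. Point estimates beyond 1.5-fold were found for 2 members, CHEK2 and NBN, against 11.1% of the tested genes within the same range of level. The libraries of both groups did not overlap for 11 members that were higher and 17 that were lower with the PELP1 shRNA. Over all tested genes that held for 39% and 38.7%, or 77.7% in either direction.

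The promoters of 4 of the 12 called members with the largest changes, chosen after their values were seen, are shown as examples of the windows that were searched. CHEK2 and BLM rose and BRIP1 fell, and these 3 hold the same number of CCAAT boxes. FANCC fell and holds the E2F letters, which were also found in EXO1, which rose. These are the 250 bases before the start from RefSeq on GRCh38.p14, each on the strand of its gene, with matches to the CCAAT box (CCAAT, either strand) and to an E2F motif (TTTCCCGC, TTTCGCGC, TTTGCCGC or TTTGGCGC, either strand) in capitals. The CCAAT box is known as the core of the NF-Y site, and E2F factors as regulators of S-phase genes. CHEK2 lies at chr22:28741821-28742070 on the minus strand, BLM at chr15:90717096-90717345 on the plus strand, BRIP1 at chr17:61863529-61863778 on the minus strand and FANCC at chr9:95317710-95317959 on the minus strand.
CHEK2: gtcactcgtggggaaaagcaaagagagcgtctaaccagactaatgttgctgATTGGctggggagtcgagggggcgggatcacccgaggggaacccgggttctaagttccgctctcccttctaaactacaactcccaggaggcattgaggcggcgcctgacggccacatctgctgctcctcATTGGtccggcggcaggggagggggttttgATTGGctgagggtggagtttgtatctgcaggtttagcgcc
BLM: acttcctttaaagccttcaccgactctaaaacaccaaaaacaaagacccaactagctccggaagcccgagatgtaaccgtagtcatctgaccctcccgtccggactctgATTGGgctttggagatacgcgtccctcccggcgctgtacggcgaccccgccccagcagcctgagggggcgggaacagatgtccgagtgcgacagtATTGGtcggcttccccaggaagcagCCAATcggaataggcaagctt
BRIP1: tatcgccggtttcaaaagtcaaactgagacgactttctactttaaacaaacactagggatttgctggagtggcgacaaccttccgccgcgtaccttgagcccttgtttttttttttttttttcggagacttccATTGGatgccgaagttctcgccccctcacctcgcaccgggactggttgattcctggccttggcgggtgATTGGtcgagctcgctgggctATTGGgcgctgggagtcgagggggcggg
FANCC: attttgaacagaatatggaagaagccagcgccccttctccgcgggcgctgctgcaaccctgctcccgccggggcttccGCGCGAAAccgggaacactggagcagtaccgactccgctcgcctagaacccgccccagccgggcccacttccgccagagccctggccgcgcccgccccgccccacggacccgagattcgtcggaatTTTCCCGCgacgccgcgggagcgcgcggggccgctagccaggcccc

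CHEK2, BLM and BRIP1 each held 3 CCAAT boxes and no E2F match in these bases, while FANCC held 2 E2F matches and no CCAAT box. Windows of 300 bases, from 250 before to 50 after the start, were matched for 33 of the 37 members (not NBN, WRN, RAD54B and FANCI), of which 9 rose, 12 fell and 12 did not pass. For the 11 members with more than 1 window only the first listed was searched. The shares over all promoters count every window, whether or not its gene passed the filter here, whereas all members did. A CCAAT box was found in 15 of the 33 windows (45.5%), against 34.6% of 35116 RefSeq promoters, namely in 2 of the 9 that rose, 8 of the 12 that fell and 5 of the 12 that did not pass. The E2F letters were found in 6 windows (18.2%, against 3.31% of all promoters), 2 in each of the same 3 classes. EXO1 and TOPBP1 were the 2 that rose, FANCA and FANCC the 2 that fell, and XRCC2 and FANCD2 did not pass. The GC box (GGGCGG, either strand) was present in 26 windows (78.8%, against 45% of all promoters). The cell cycle homology region (TTTGAA or TTCGAA, either strand) was found in 4 windows (12.1%, against 16.4%), in 0 of the 9 genes that rose, in 4 of the 12 that fell (ATM, MDC1, BRIP1 and FANCC) and in 0 of the 12 that did not pass. The κB motif was found in 2 (6.06%, against 11.3%). An oestrogen response half-site (AGGTCA, either strand) was found in 3 windows (9.09%, against 13.8%), as was the cyclic AMP response element (TGACGTCA) in 3 (9.09%, against 1.85%). Matches are descriptions of these letters only, and the motifs were chosen with the changes known.

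Among the genes of damage signalling, CHEK2, TOPBP1 and ATR rose, while MDC1, ATM and TP53BP1 fell. CHEK2 encodes the checkpoint kinase activated by ATM and lies on chromosome 22 (hg19, 29083731 to 29137808, minus strand). It had 30.1 and 31.1 CPM in the PELP1 shRNA libraries, against 18.7 and 19.6 CPM in the control shRNA libraries. Both PELP1 shRNA libraries were higher than both control libraries, and the level was 159% of control (log2 fold change 0.67 ± 0.08, SE, edgeR FDR = 2.5e-11). The annotation names 7 pseudogenes of CHEK2, and reads that aligned equally well to several places were not counted.

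CHEK1, the kinase activated by ATR, stood at 64.4 and 68.0 CPM with the PELP1 shRNA, against 65.2 and 65.3 CPM with the control shRNA. The groups overlapped, and the 95% confidence interval of its log2 fold change ran from −0.09 to 0.13. ATRIP, the partner that brings ATR to single-stranded DNA, had 16.4 and 15.3 CPM against 15.2 and 16.8 CPM and also overlapped (interval −0.20 to 0.17). ATRIP shares 1448 of its 4576 exonic bases with TREX1 on the same strand, and the effect of this overlap on its count was not tested.

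TOPBP1, the scaffold that activates ATR, was the most abundant member, with 279.9 and 284.9 CPM in the PELP1 shRNA libraries, against 240.8 and 235.8 CPM in the control shRNA libraries (log2 fold change 0.24 ± 0.04, SE, edgeR FDR = 7.71e-08). ATR itself was higher in both libraries, at 100.5 and 99.9 CPM against 94.4 and 91.6 CPM, but only by 0.11 ± 0.05 (SE, edgeR FDR = 0.0452), a call lost with DESeq2 and without any 1 of the 4 libraries. MDC1, which binds phosphorylated histone H2AX at breaks, had 145 and 146 CPM with the PELP1 shRNA, against 175.1 and 175.4 CPM with the control shRNA (log2 fold change −0.27 ± 0.04, SE, edgeR FDR = 7.96e-08). ATM and TP53BP1, the break-binding protein that limits end resection, fell less, by 0.16 ± 0.05 and 0.12 ± 0.04 (SE, edgeR FDR = 0.0106 and 0.0164). Calls for both were lost with library size alone, upper-quartile factors or DESeq2, that for ATM also without PELP1 shRNA replicate 1 or control shRNA replicate 1, and that for TP53BP1 without either PELP1 shRNA library or control shRNA replicate 2. TP53BP1 shares 3732 of its 10369 exonic bases with TUBGCP4 on the other strand.

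Of the 7 genes of end processing, EXO1 and BLM rose, NBN, MRE11A and RBBP8 fell, and RAD50 and WRN did not pass. NBN, the subunit that ties MRN to ATM, lies on chromosome 8 (90945559 to 90996895, minus strand). It had 57.5 and 57.3 CPM in the PELP1 shRNA libraries, against 91.3 and 88.1 CPM in the control shRNA libraries. The level was 64% of control, with no overlap between the groups (log2 fold change −0.64 ± 0.05, SE, edgeR FDR = 3.2e-17). The nuclease subunit gene MRE11A had 38.8 and 40.2 CPM against 45.8 and 43.0 CPM (−0.17 ± 0.06, SE, edgeR FDR = 0.0185), a call lost with library size alone, upper-quartile factors or DESeq2, and without replicate 1 of either group. The ATPase subunit gene RAD50 stood at 120.3 and 123 CPM with the PELP1 shRNA, against 114 and 116 CPM with the control shRNA, and did not pass (0.08 ± 0.04, SE, edgeR FDR = 0.0955). Library size alone, upper-quartile factors and the filter at 5 CPM each brought RAD50 past the threshold. RAD50 shares 7525 of its 8272 exonic bases with overlapping annotation on the same strand, and the effect of this overlap on its count was not tested.

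BLM, the helicase mutated in Bloom syndrome, lies on chromosome 15 (91260577 to 91359396, plus strand). It rose to 67.7 and 71.2 CPM with the PELP1 shRNA, against 47.6 and 47.5 CPM with the control shRNA (log2 fold change 0.55 ± 0.06, SE, edgeR FDR = 4.01e-13). EXO1, an exonuclease of long resection on chromosome 1 (242011506 to 242053241, plus strand), rose to 116 and 122 CPM, against 88.3 and 87.7 CPM (0.44 ± 0.05, SE, edgeR FDR = 1.64e-12). Both genes had PELP1 shRNA libraries well above the control libraries. WRN, a helicase of the same family as BLM, had 25.8 and 28.2 CPM with the PELP1 shRNA, against 31.1 and 28.1 CPM with the control shRNA, and overlapped (interval −0.28 to 0.02). RBBP8, whose product CtIP starts resection together with MRN, fell to 81.7 and 85.0 CPM, against 95.5 and 90.2 CPM (−0.16 ± 0.05, SE, edgeR FDR = 0.00503). Upper-quartile factors and library size alone ended the RBBP8 call, as did the fits without PELP1 shRNA replicate 1 or control shRNA replicate 1.

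**Figure D2:**
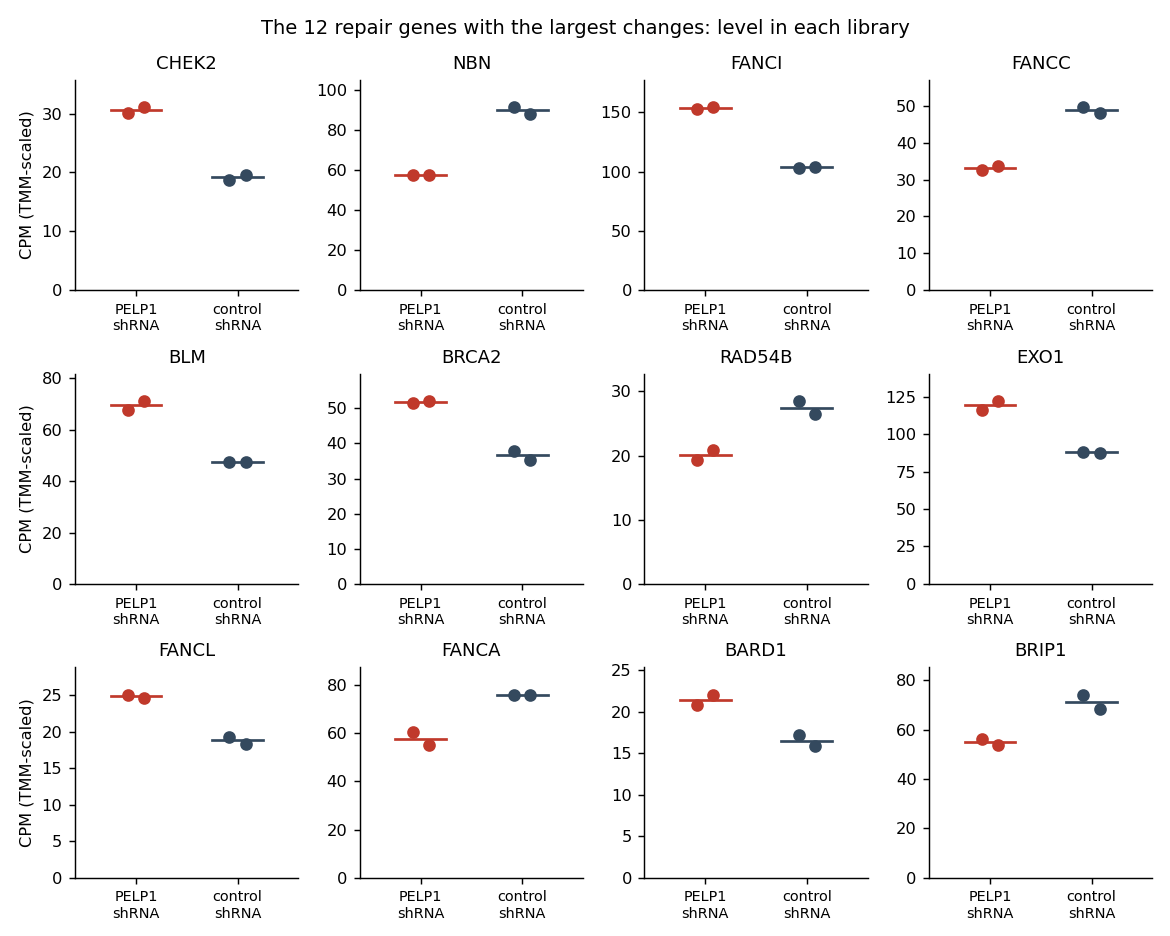
Level in each library (CPM, linear axis from 0) of the 12 repair genes with the largest changes among those called, PELP1 shRNA in red and control shRNA in dark grey, with a line at each group's mean. In all 12 panels the libraries of the groups do not overlap, which choosing called genes by size of change makes likely. Over all tested genes 77.7% did not overlap. Of the 12 genes, 7 are higher and 5 lower with the PELP1 shRNA.

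In the BRCA group, BRCA2, BARD1 and BRCA1 rose, PALB2 did not pass and BRIP1 fell. BRCA2, a mediator of strand exchange on resected DNA, lies on chromosome 13 (32889645 to 32974405, plus strand). It had 51.5 and 52.1 CPM in the PELP1 shRNA libraries, against 37.99 and 35.2 CPM in the control shRNA libraries (log2 fold change 0.50 ± 0.06, SE, edgeR FDR = 1.88e-10). BARD1, the RING-domain partner of BRCA1 on chromosome 2 (215590370 to 215674407, minus strand), had 20.8 and 22.1 CPM against 17.2 and 15.9 CPM (0.38 ± 0.09, SE, edgeR FDR = 0.00014). BRCA1 rose less, to 97.0 and 98.7 CPM against 83.6 and 86.2 CPM (0.20 ± 0.05, SE, edgeR FDR = 0.000198). In all 3 the PELP1 shRNA libraries were the higher ones.

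PALB2, which links BRCA1 to BRCA2, stood at 28.8 and 30.4 CPM with the PELP1 shRNA, against 27.5 and 29.2 CPM with the control shRNA, and its interval ran from −0.08 to 0.21. BRIP1, a helicase that binds BRCA1 and is also known as FANCJ, lies on chromosome 17 (59756500 to 59940889, minus strand). It fell to 56.1 and 53.7 CPM, against 74.1 and 68.4 CPM (−0.37 ± 0.06, SE, edgeR FDR = 3.05e-08). BRIP1 was the only gene of these 5 to fall.

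Genes of strand exchange were the role group with no member called higher: of 7, 4 fell and 3 did not pass. The share called, 57.1%, was close to the 58.1% over all genes tested, of which 28.6% were higher. At an unadjusted p under 0.05 the count of higher members was also 0 in edgeR, DESeq2 and limma-voom, and DESeq2 called 2 lower. All 7 point estimates were negative under TMM and upper-quartile scaling, with a median of −0.15 under TMM. With library size alone, 5 were negative and RAD51D and XRCC2 were slightly positive (0.026 and 0.023). The summed level was 229 and 223.5 CPM in the PELP1 shRNA libraries, against 258 and 257 CPM in the control shRNA libraries.

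RAD54B, a motor protein of the SWI2/SNF2 family that acts in strand exchange, lies on chromosome 8 (95384188 to 95487343, minus strand). It had 19.4 and 20.8 CPM with the PELP1 shRNA, against 28.5 and 26.4 CPM with the control shRNA (log2 fold change −0.45 ± 0.08, SE, edgeR FDR = 1.51e-06). The annotation places 2014 of its 3074 exonic bases also in FSBP on the same strand. RAD51C, which forms a complex with XRCC3, fell to 27.9 and 27.9 CPM, against 37.01 and 32.5 CPM (−0.31 ± 0.07, SE, edgeR FDR = 0.000145). Its partner XRCC3 had 60.3 and 51.1 CPM against 61.0 and 64.6 CPM (−0.17 ± 0.06, SE, edgeR FDR = 0.0135), so the nearest libraries of the groups differed by less than the PELP1 shRNA libraries did among themselves. RAD54L fell by 0.15 ± 0.06 (SE, edgeR FDR = 0.0197). Calls for XRCC3 and RAD54L were lost with library size alone, upper-quartile factors or DESeq2, and without PELP1 shRNA replicate 2 or control shRNA replicate 2; that for RAD54L also without PELP1 shRNA replicate 1. RAD51D, XRCC2 and RAD52, an annealing protein, lay between −0.14 and −0.06 and did not pass.

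In the Fanconi core complex, FANCC, FANCA and FANCE fell, FANCL rose, and FANCB, FANCF, FANCG and FANCM did not pass. FANCC lies on chromosome 9 (97861336 to 98079991, minus strand). It had 32.7 and 33.8 CPM in the PELP1 shRNA libraries, against 49.7 and 48.1 CPM in the control shRNA libraries, 68.1% of control (log2 fold change −0.56 ± 0.06, SE, edgeR FDR = 1.44e-11). FANCE, its direct partner in the complex, fell to 30.3 and 27.2 CPM, against 34.7 and 33.5 CPM (−0.24 ± 0.07, SE, edgeR FDR = 0.00258). The FANCE call was lost with library size alone and without PELP1 shRNA replicate 2. FANCF, which bridges this pair to the rest of the complex, had 19.3 and 19.3 CPM against 19.3 and 19.98 CPM (interval −0.19 to 0.14).

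FANCA on chromosome 16 (89803957 to 89883055, minus strand) fell to 60.6 and 55.0 CPM with the PELP1 shRNA, against 76.0 and 75.7 CPM with the control shRNA (log2 fold change −0.39 ± 0.05, SE, edgeR FDR = 5.66e-09). It shares 1492 of its 5452 exonic bases with ZNF276 on the other strand. FANCG, which binds FANCA, was at 85.97 and 80.8 CPM against 80.1 and 84.4 CPM and overlapped (interval −0.08 to 0.12). FANCL, the ubiquitin ligase subunit, on chromosome 2 (58386382 to 58468460, minus strand), was the only core member called higher. It had 25.1 and 24.6 CPM in the PELP1 shRNA libraries, against 19.3 and 18.3 CPM in the control shRNA libraries (0.40 ± 0.08, SE, edgeR FDR = 1.9e-05), and 452 of its 1658 exonic bases overlap VRK2 on the other strand. FANCB, which sits with FANCL in the complex, stood at −0.10 ± 0.10 and the translocase gene FANCM at −0.15 ± 0.07 (SE, edgeR FDR = 0.402 and 0.0577).

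FANCI and FANCD2, whose products form the pair that the core complex ubiquitinates, differed. FANCI lies on chromosome 15 (89787210 to 89860362, plus strand) and shares 458 of its 4733 exonic bases with POLG on the other strand. It rose to 153 and 154 CPM with the PELP1 shRNA, against 103.5 and 104 CPM with the control shRNA, 148% of control (log2 fold change 0.57 ± 0.04, SE, edgeR FDR = 6.26e-18). FANCD2 had 68.2 and 69.8 CPM with the PELP1 shRNA, against 74.4 and 68.05 CPM with the control shRNA. Its groups overlapped, and the interval of its log2 fold change, −0.15 to 0.06, lay wholly below that of FANCI, 0.48 to 0.65.

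Ratios of raw counts within a library do not depend on scaling, and 12 such ratios of partner or related genes, chosen with the values known, were compared. The count of FANCI was 2.24 and 2.21 times that of FANCD2 in the PELP1 shRNA libraries, against 1.39 and 1.53 times in the control shRNA libraries. The ratio of CHEK2 to CHEK1 was 0.468 and 0.457 with the PELP1 shRNA, against 0.287 and 0.301 with the control shRNA. BLM to WRN stood at 2.62 and 2.53 against 1.53 and 1.69. These 3 ratios were thus 1.53, 1.57 and 1.6 times as high with the PELP1 shRNA.

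Within MRN, NBN to RAD50 was 0.478 and 0.465 with the PELP1 shRNA, against 0.801 and 0.762 with the control shRNA, and NBN to MRE11A was 1.48 and 1.43 against 1.99 and 2.05. BRCA2 to PALB2 was higher in both PELP1 shRNA libraries, at 1.79 and 1.71 against 1.38 and 1.20. For RAD51C to XRCC3 and ATRIP to ATR the libraries overlapped. With 2 libraries a group, an exact two-sided permutation test cannot go below p = 0.333, the value reached by the 10 ratios without overlap (0.4 after Benjamini-Hochberg adjustment over the 12).

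**Figure D3:**
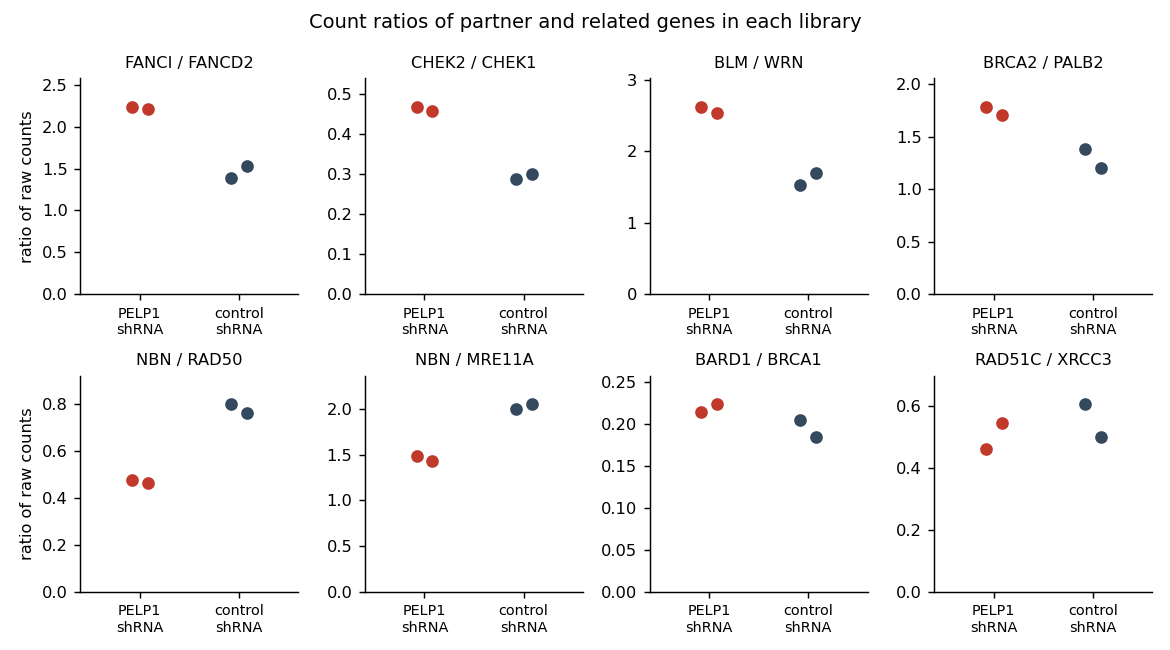
Ratio of raw counts (linear axis from 0) of 8 pairs of repair genes in each library, PELP1 shRNA in red and control shRNA in dark grey. The libraries separate for 7 pairs, in both directions, and overlap for RAD51C over XRCC3.

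Levels per length, in CPM per kilobase of the canonical transcript, ranged widely among the members. TOPBP1 had the highest mean, 49.0 with the PELP1 shRNA and 41.4 with the control shRNA. FANCG (32.6 and 32.2), EXO1 (34.6 and 25.5) and FANCI (32.5 and 21.9), in the same order of groups, were also high. EXO1 thus stood above FANCG with the PELP1 shRNA and below it with the control shRNA. RAD51D had the lowest level per length (1.5 with the PELP1 shRNA and 1.57 with the control shRNA), on a canonical transcript of 9966 bases. Other low levels, in the same order of groups, were those of BARD1 (3.91 and 3.01), ATRIP (3.47 and 3.5) and BRCA2 (4.33 and 3.06). Across the 37 members, the log2 fold change showed little rank correlation with transcript length (Spearman's rho = 0.03), gene span (−0.02) or level per length (0.08), given as descriptions over genes that share the same 4 libraries.

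Several members share a promoter region with a gene on the opposite strand. By GENCODE on hg19, 19 members had such a neighbour, here called head-to-head, whose start lay within 1 kb of their own. For CHEK1 and RBBP8 the neighbour starts inside the member, so those genes overlap. For 8 of the 19 members the neighbour was a protein-coding gene that was tested. The member alone was called in 5 of these pairs, the neighbour alone in 1 and neither in 2. Over all tested genes 58.1% were called, and 64.3% of those within the members' range of level. PURG (0.7 to 1.49 CPM) and TEX14 (0.35 to 0.73 CPM), the neighbours of WRN and RAD51C, had few counts. CHEK2 rose, while HSCB, an iron-sulphur cluster cochaperone gene that starts 219 bases away, had 17.9 and 17.9 CPM in the PELP1 shRNA libraries, against 17.8 and 16.6 CPM in the control shRNA libraries (log2 fold change 0.06 ± 0.09, SE, edgeR FDR = 0.591). PALB2 did not pass, while DCTN5, a dynactin subunit gene that starts 156 bases away, fell to 72.8 and 72.9 CPM, against 131 and 128 CPM (−0.83 ± 0.05, SE, edgeR FDR = 3.27e-24). ATM was called lower, whereas NPAT, a coactivator of histone genes that starts 429 bases away, stood at 0.07 ± 0.06 (SE, edgeR FDR = 0.35).

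**Figure D4:**
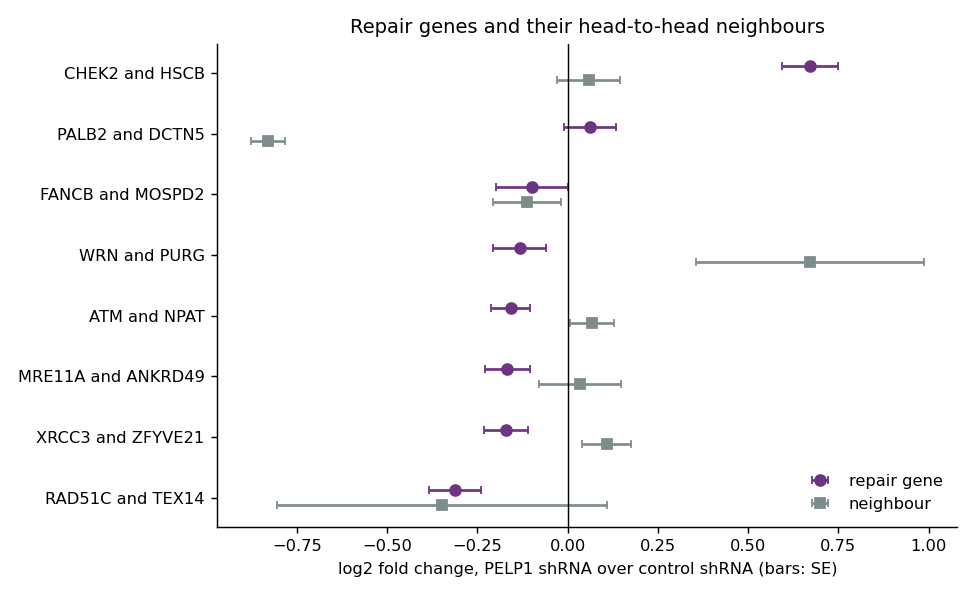
Log2 fold changes, PELP1 shRNA over control shRNA, of 8 repair genes (purple circles) and of their tested protein-coding head-to-head neighbours (grey squares), with bars for the standard error. CHEK2 stands at 0.67 beside HSCB at 0.06, and PALB2 at 0.06 beside DCTN5 at −0.83; the wide bars of PURG and TEX14 belong to genes of few counts.

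Other genes of recombination and the Fanconi pathway, listed apart from the 37, gave a similar mixture. Of 45 listed, 43 were tested, and 9 rose, 11 fell and 23 missed the threshold (median of −0.0049 on the log2 scale). With library size alone 14 rose and 9 fell, against 5681 higher and 3305 lower of all 14972 genes tested. The share called was 46.5%, against 58.1% of all genes tested. RMI2, a subunit of the complex in which BLM dissolves recombination intermediates, rose to 36.6 and 34.4 CPM with the PELP1 shRNA, against 22.2 and 22.7 CPM with the control shRNA (0.66 ± 0.07, SE, edgeR FDR = 5.65e-12). The other subunits of that complex, TOP3A (0.07) and RMI1 (0.06), did not pass; they were named after their values were seen.

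FAM175A, which encodes Abraxas of the BRCA1-A complex, fell to 65.5% of control and C17orf70, the Fanconi core subunit FAAP100, to 66% (log2 fold changes −0.61 ± 0.11 and −0.60 ± 0.08, SE, edgeR FDR = 5.81e-06 and 8e-10). One listed gene, XRCC6BP1, is known chiefly as a mitochondrial protease gene and is counted among the 9 that rose.

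Among 19 tested checkpoint genes outside the set, 7 rose, 7 fell and 5 did not pass (median 0.06). Thus 73.7% were called, against 58.1% of all genes and 64.3% of tested genes in the members' range of level. All 19 lay within that range. With library size alone 10 rose and 5 fell (median 0.15), against 5681 higher and 3305 lower of all 14972 genes tested (median 0.09). TELO2, a cochaperone that stabilises ATM, ATR and related kinases, fell to 33.3 and 27.8 CPM with the PELP1 shRNA, against 53.1 and 55.7 CPM with the control shRNA. Its log2 fold change was −0.83 ± 0.07 (SE, edgeR FDR = 2.06e-16), and it passed the test against a 1.5-fold change (edgeR glmTreat FDR = 0.000773), as it did in limma-voom but not in DESeq2. RNF168, a ubiquitin ligase that recruits TP53BP1 to breaks, rose by 0.35 ± 0.07, and TIPIN, a partner of the replication fork protein TIMELESS, fell by 0.30 ± 0.08 (SE, edgeR FDR = 5.13e-06 and 0.000878).

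Of 17 genes of end joining and single-strand break repair, 5 rose, 4 fell and 8 did not pass (median 0.0084). That is 52.9% called, against 58.1% of all genes tested. PRKDC, the DNA-dependent protein kinase of end joining, fell to 416 and 413 CPM with the PELP1 shRNA, against 638 and 614 CPM with the control shRNA (−0.59 ± 0.03, SE, edgeR FDR = 2.77e-23). The ligase gene LIG3 fell by 0.38 ± 0.05 and APTX, which repairs abortive ligation ends, rose by 0.27 ± 0.05 (SE, edgeR FDR = 5.08e-09 and 1.62e-05). In this list DESeq2 called 1 higher and 2 lower, and library size alone and upper-quartile factors each gave 7 higher and 2 lower. Over all 14972 genes tested, DESeq2 called 3092 higher and 3476 lower, library size alone 5681 and 3305, and upper-quartile factors 5071 and 3694.

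Many of the 37 genes are known to be transcribed with the cell cycle, so lists of S-phase and G2/M genes are given beside them. Of 20 S-phase genes 5 rose and 8 fell (median −0.07), among them MCM3 (0.49), UHRF1 (−0.55) and CDC45 (−0.48). Of 20 G2/M genes 9 rose and 4 fell (median 0.07), among them NUSAP1 (0.36), PLK1 (−0.46) and CENPE (−0.33). In each list 65% were called, against 58.1% of all genes tested (28.6% higher and 29.5% lower). With library size alone 14 G2/M genes rose and 3 fell, and 6 S-phase genes rose and 6 fell. Of all 14972 genes tested, 5681 rose and 3305 fell with that scaling. The part of the cell cycle in the members' changes was not tested.

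**Figure D5:**
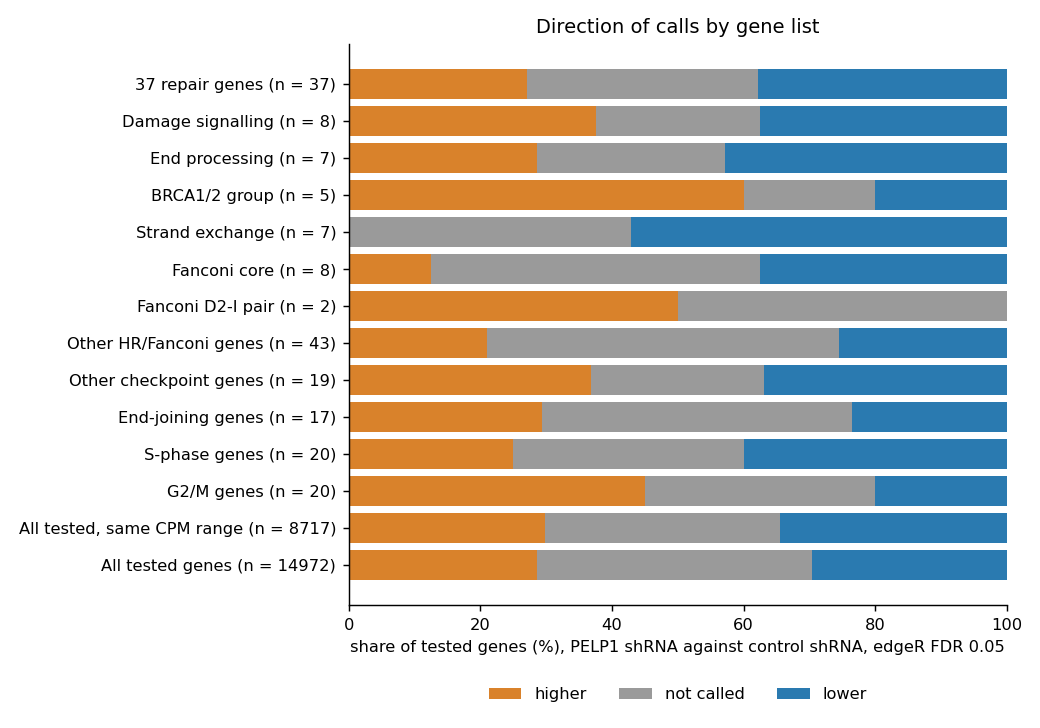
Share of tested genes (%) called higher (orange), not called (grey) and called lower (blue) with the PELP1 shRNA against the control shRNA, by edgeR at an FDR of 0.05, for the 37 repair genes, their role groups, the other lists and all genes tested. The bar of the 37 genes (64.9% called) is close to that of tested genes in the same range of level (64.3%), and strand exchange is the role group with no orange segment.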

How the data were processed

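Libraries of Daoy RNA gave single-end reads of 50 bases. Alignment used TopHat2 2.0.8b on hg19 and counting used HTSeq, per the submitters' processing notes. Which strand setting and annotation HTSeq used is not given in the sources used here, so reads of genes overlapping on opposite strands cannot be told apart. The authors deposited whole-number counts for each gene symbol, not normalised. Alignments that were not unique (29.4% to 30.8% of each file), reads in no gene (8.83% to 9.08%) and ambiguous reads (0.579% to 0.602%) name no gene and entered neither the library sizes nor any test.

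Counts were tested with edgeR 4.0.16 in R 4.3.3 (quasi-likelihood test, robust, TMM factors of 0.967 to 1.03, filterByExpr, intercept and shRNA group, two-sided, Benjamini-Hochberg over 14972 genes, FDR 0.05), and against a 1.5-fold change with glmTreat. The estimated biological variation was 2.99%. Errors are SE of log2 fold changes; intervals are 95%. Alternatives used DESeq2 1.42.0, limma-voom 3.58.1, other scaling and filters, each library left out, a replicate block and assumed variation. Scripts were tested on simulated data. Replicates differed by more than counting noise (chi-square per degree of freedom 2.37 and 2.47).

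The members and all gene lists were chosen with earlier results of these data known. Full values are given for the 12 called members with the largest change, and the 3 largest called changes at 5 CPM or more are named in each list of other repair, checkpoint and cell cycle genes. Coordinates and lengths are those of canonical transcripts in GENCODE 44 lifted to GRCh37 (hg19); that annotation may differ from the one used for counting. Promoters came from RefSeq. 1 gene of the other lists is not reported here by name.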

Additional observations from a re-analysis of the deposited data

How the results depend on the processing

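The fall of PELP1 kept its direction and its call in all 13 alternatives, from −1.83 to −1.66. Of the 24 called members, 16 kept their call in every alternative except the assumed biological variations, and 8 (ATM, ATR, TP53BP1, MRE11A, RBBP8, XRCC3, RAD54L and FANCE) lost it in at least 1 other. The number of lower members was 8 with upper-quartile factors, 7 with library size alone and 9 with DESeq2, and from 9 to 12 with 1 library left out, where 9 members were higher each time. With library size alone 1 member passed the 1.5-fold test. With that scaling 14 other recombination and Fanconi genes were higher, as were 5681 of all 14972 genes tested. With 1 library left out, 6 to 8 genes of that list were higher and 7 to 11 lower. At an assumed variation of 10%, 4363 genes were called (29.1% of all tested). Of the 37 members 6 were higher and 5 lower, with 4 higher and 2 lower in the other list. At 20%, 1325 genes were called (8.85% of all tested), with 0 members in either direction and 0 genes of the other list. At an unadjusted p under 0.05 (edgeR, 20%), 1 member was higher and 1 lower. In the other list 1 was higher and 2 lower unadjusted. The cause of these differences was not tested. Directions reversed only for members that did not pass. Upper-quartile factors gave 0.039 for ATRIP, 0.028 for FANCF and 0.0086 for FANCD2. Library size alone gave 0.076 for ATRIP, 0.065 for FANCF, 0.046 for FANCD2, 0.026 for RAD51D and 0.023 for XRCC2, and the 5 CPM filter 0.0015 for ATRIP. With 1 library left out, ATRIP ranged from −0.086 to 0.064, FANCD2 from −0.11 to 0.019, RAD51D from −0.14 to 0.0074, CHEK1 from −0.021 to 0.062 and FANCG from −0.026 to 0.062. The replicate numbers were not taken as pairs: no label ties them to a shared culture, and deviations of same-numbered libraries correlated at 0.01 over 2 numbers. With the replicate block 9 members were higher and 13 lower, the calls for ATR and TP53BP1 being lost. With 2 libraries a group, the spread rests on few values.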
